A study of Mus musculus with 34 samples.

Results

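Stellate and other mesenchymal cells of the fetal liver were followed through 10 of their genes, chosen by name: the growth factor receptors Pdgfra and Pdgfrb, the fibrillar collagen genes Col1a1, Col1a2 and Col3a1, the proteoglycan genes Dcn and Lum, and Des, Acta2 and Rgs5 of contractile cells and pericytes. They are 10 of the 18193 genes with a probe set on the array, and all 10 were among the 12723 genes with enough signal to test. Total RNA came from freshly isolated, unsorted and untreated mouse fetal livers, labelled as embryonic day 14.5 on every sample, while the series' design gives a span that begins up to a day before it. The 34 arrays fall into 8 genotypes: Rb1;p107;p130 TKO (6 arrays, all 3 proteins lost), Rb1;p130 DKO (9 arrays), Rb1;p107 DKO (5 arrays), p107;p130 DKO (6 arrays), Rb1 KO (2 arrays), p130 KO (3 arrays), p107 KO (1 array) and wild type (2 arrays). How the alleles were made, the strain and whether arrays came from separate fetuses are not given in the sources used here, so the p-values refer to the spread among arrays, which may be technical. The p107 KO has no replicate and enters no pairwise test.

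Hepatic stellate cells lie between the hepatocytes and the endothelium of the sinusoids, store vitamin A and, with portal fibroblasts and the mesothelium, make up the mesenchyme of the liver. In the fetus these cells lay down matrix and secrete growth factors beside the blood-forming cells that then fill the organ, and after injury in the adult they turn into collagen-producing myofibroblasts. The retinoblastoma family, made up of Rb1, of p107 from the gene Rbl1 and of p130 from the gene Rbl2, binds E2F transcription factors and holds back the cell cycle. In RNA of a whole organ, fewer cells of a type and less RNA per cell cannot be told apart.

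Each array had been scaled to a common level by the authors, with 2% trimmed means of 495.4 to 497.7 and median signals of 80.6 to 115.9. The label check held for all genotypes: genotype means of Rb1 were 937.4 to 1515 where the gene was lost, against 5860 to 7435 where it was present, those of Rbl1 were 69.50 to 87.65 against 1382 to 2078, and those of Rbl2 were 184.2 to 206.7 against 345.1 to 481.3. Of 19 other stellate cell markers with a probe set, 13 had a signal of 100 or more on all 34 arrays, among them Reln (lowest signal 3750), Lhx2 (121.0), Hand2 (137.0) and Tcf21 (113.0). Of the other 6, Hgf reached 100 on 29 arrays, Gata4 on 27, Nes on 20, Lrat, the enzyme that stores vitamin A, on 12, Cygb on 1 and Vipr1 on 0. Probe sets of the same gene sorted the arrays into 3 groups of 15, 10 and 9 arrays. The number of groups was set and not found from the signals. These groups split several genotypes but are partly confounded with genotype. No file or label records these array groups, and which arrays fall in each comes from the signal alone. In the second, wild type array 2 is the only one that carries p107, and every array of the third lacks p130. The Rb1;p107 DKO and the Rb1;p130 DKO share only the first group, through array 1 of the Rb1;p107 DKO.

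Before any genotype is compared, 2 arrays stood apart in the mesenchymal genes. The p107 KO array lay 1.02 above the median array in the mean log2 level of the 10 genes and was among the 3 highest arrays for 9 of them. Array 9 of the Rb1;p130 DKO lay 0.93 above it, and no other array of that genotype lay above 0.12. The lowest was array 1 of the p130 KO, 0.84 below the median array (log2 difference -0.84) and among the 3 lowest for 7 of the 10 genes.

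The same 2 arrays carried the highest summed signal for genes of the pancreas and gut, and 3 of the 5 tested genes of that list, Cpa1, Shh and Barx1, peaked on either of them. Gata6 (399.1 on the p107 KO array and 626.4 on array 9 of the Rb1;p130 DKO, highest 669.2) and Nkx2-5 (105.0 and 91.63, highest 146.0) peaked on other arrays. The summed signal of the 5 genes was 2212 on the p107 KO array and 2413 on array 9 of the Rb1;p130 DKO, against a median of 660.2 over all arrays. Cpa1, a digestive enzyme of the exocrine pancreas, had 944.1 on the p107 KO array and 199.2 on array 9 of the Rb1;p130 DKO, with a median of 16.94. Barx1, a transcription factor of the stomach mesenchyme, had 234.1 and 474.7 on the same arrays, with a median of 61.23. Pdx1, Ptf1a, Cdx2 and Cdx1 stayed under a signal of 100 on all 34 arrays. Of the 9 genes of the list with a probe set, 5 were thus tested. Cpa1 reached 100 on 3 arrays and Barx1 on 4, these 2 included. Testing needed a signal of 100 on 2 or more arrays. Cpa1 was thus tested only because of these 2 arrays, while Barx1 would have been tested without them. The summed signals and mean levels that set the 2 arrays apart for this list include Cpa1, so they rest in part on that choice. Of 17 tested genes of the other stellate cell list, 8 also peaked on either of the 2 arrays, and the share over all genes was not counted.

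Muscle genes were high there as well. The sum of 15 skeletal muscle genes was 7086 on the p107 KO array, the highest of all, and 4449 on array 9 of the Rb1;p130 DKO, the fifth highest, with a median of 2113. The sum of 15 smooth muscle and pericyte genes was 9402 and 14720 on these arrays, with a median of 6986. For this list the p107 KO array did not stand apart, as sums reached 9428 in the p107;p130 DKO and 9354 in the triple KO. Endothelial genes were less apart, at 8256 on the p107 KO array and 9499 on array 9 of the Rb1;p130 DKO, with a median of 8078. Hepatocyte genes summed to 192100 and 222600 on the same arrays, with a median of 199900. The part of these other tissues in the results below was not tested, and the spread, the correlations and the calls that changed are given with and without the 2 arrays.

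**Figure D1:**
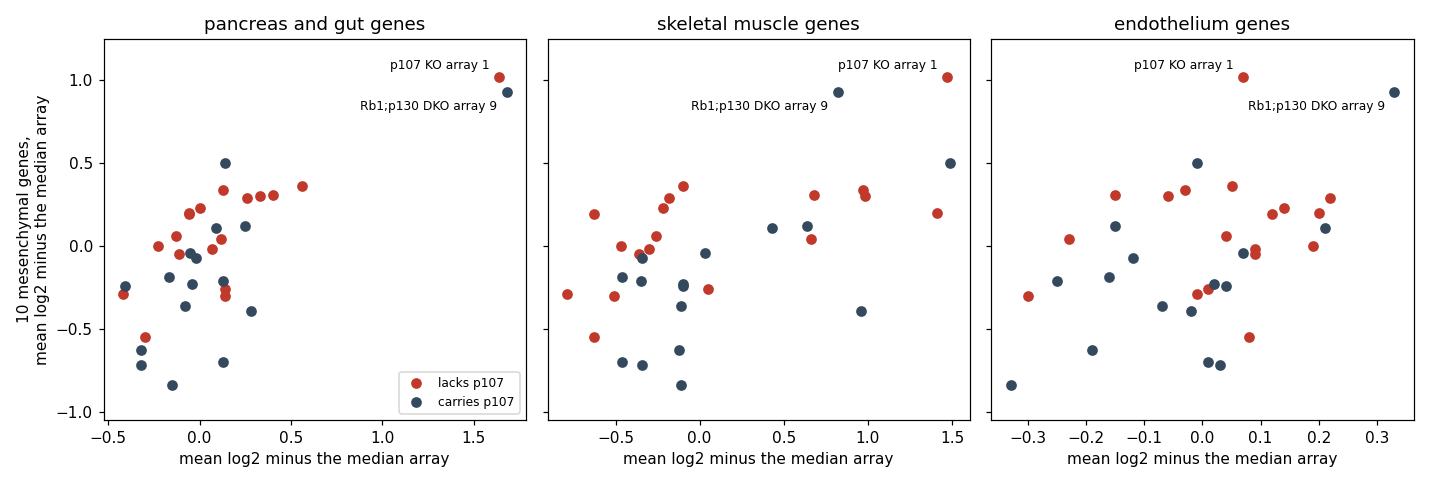
Each point is 1 array. The vertical axis is the mean log2 level of the 10 mesenchymal genes minus that of the median array, and the horizontal axis is the same quantity for the tested genes of pancreas and gut, skeletal muscle and endothelium. The p107 KO array and array 9 of the Rb1;p130 DKO lie apart at the upper right for pancreas and gut genes (1.64 and 1.68). Those genes include Cpa1, which was tested only because of these 2 arrays. For skeletal muscle genes several other arrays reach as far.

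Across genotypes, Pdgfrb alone of the 10 genes differed by more than its replicates did. In the F test of limma over the 7 genotypes with at least 2 arrays, 99 of the 12723 genes (0.778%) had a Benjamini-Hochberg adjusted p under 0.05 and so were called, and Pdgfrb was 1 of them (F = 7.34, adjusted p = 0.0116). The other 9 genes had F between 0.65 for Acta2 and 2.18 for Rgs5, with adjusted p of 0.563 to 0.917. The call of Pdgfrb ended with array group as a factor (adjusted p = 0.114) and with the mean of its probe sets (adjusted p = 0.263).

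Replicate arrays varied widely in these genes. The standard deviation between arrays of 1 genotype, on the log2(signal + 32) scale, had a median of 0.56 over the 10 genes and of 0.30 over all genes tested. The standard deviation of the 7 genotype means had a median of 0.34 over the 10 genes, against 0.16 over all genes. Both spreads were thus wide, and for 9 of the 10 genes the one between replicates was the wider, as it was for 97.6% of all genes tested. Col1a1 (0.64), Col1a2 (0.63), Des (0.61), Acta2 (0.60) and Col3a1 (0.59) lay above the 90th percentile of all genes in replicate spread. Without the p107 KO array and array 9 of the Rb1;p130 DKO, the spread of Acta2 was 0.36, at percentile 68.5, and that of Col3a1 0.52, at percentile 89.3, while Col1a1 (0.63), Col1a2 (0.60) and Des (0.58) stayed above the 90th. The median over the 10 genes was then 0.49, against 0.29 over all genes. For Pdgfrb the order was turned, with 0.34 between genotypes and 0.32 between replicates, and 61.1% of its variance lay between genotypes, against a median of 19.4% over all genes and 18.8% that noise alone would give.

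**Figure D2:**
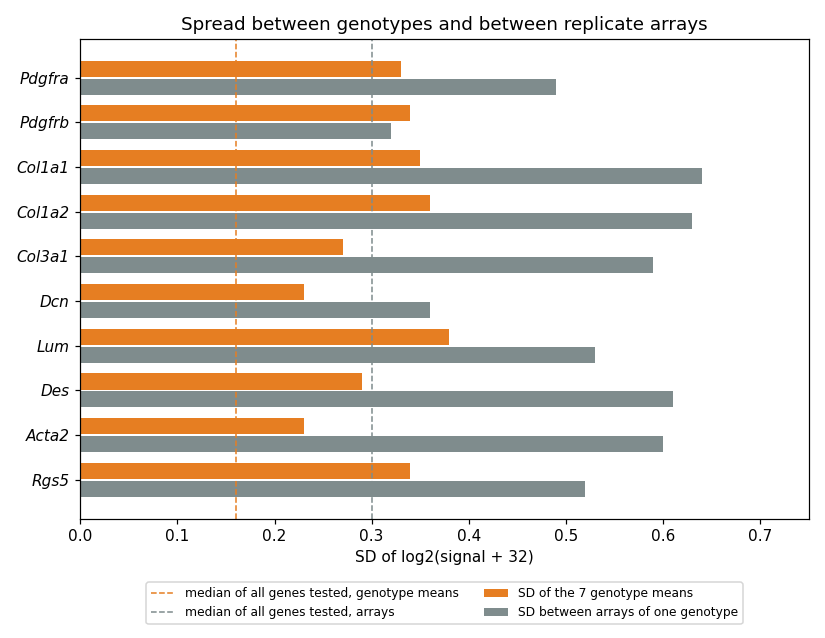
Bars give, for each mesenchymal gene, the SD of the 7 genotype means (orange) and the SD between arrays of a genotype (grey), both on the log2(signal + 32) scale, with dashed lines at the medians of all genes tested. Only for Pdgfrb is the orange bar (0.34) longer than the grey one (0.32).

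The receptors come first by role. Pdgfrb encodes the receptor for PDGF-B that pericytes and stellate cells carry. Its 6 triple KO arrays had a lowest signal of 517.6, a median of 660.2 and a highest of 822.8. The 5 arrays lacking Rb1 and p107 had 756.8, 734.2, 786.6, 741.6 and 684.4. These 5 replicates were the closest of any genotype for this gene, with a mean of 740.7 ± 37.4 (SD, n = 5).

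The 6 arrays of the p107;p130 DKO ran from 516.0 through a median of 753.7 to 989.7, and the single p107 KO array had 1426.9. Among genotypes that carry p107, the 9 arrays lacking Rb1 and p130 ran from 258.4 through a median of 350.1 to 667.3, the 3 of the p130 KO had 420.3, 548.4 and 383.4, and the 2 of the Rb1 KO had 597.7 and 424.0. Wild type livers had 485.8 and 675.0. Every genotype that lacks p107 thus had a higher mean (for the p107 KO, its single value) than every genotype that carries it, with wild type the nearest at 580.4 ± 134 (SD, n = 2) and the triple KO at 660.0 ± 120 (SD, n = 6).

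**Figure D3:**
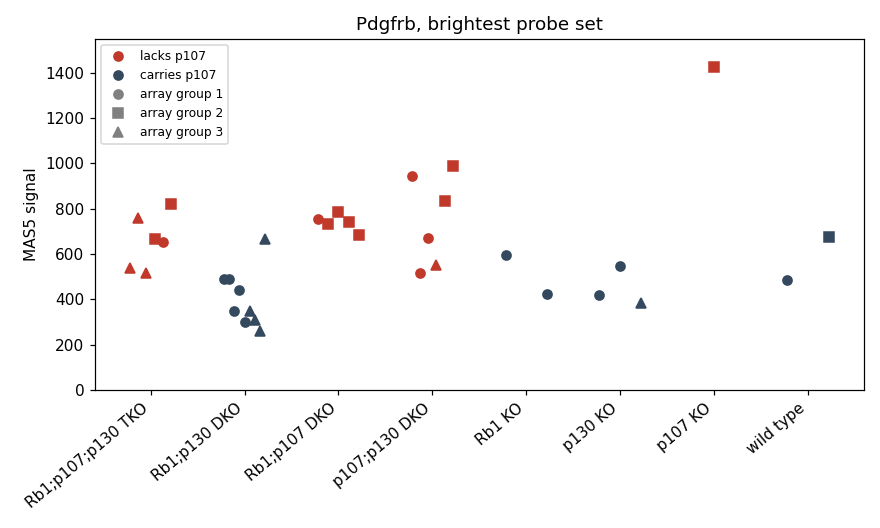
The MAS5 signal of the brightest Pdgfrb probe set is shown for each of the 34 arrays by genotype, in red where p107 is lost and in dark blue where it is carried, with the marker shape giving the array group. The 18 arrays that lack p107 lie between 516.0 and 1426.9 and the 16 that carry it between 258.4 and 675.0.

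Pooled over backgrounds, Pdgfrb was higher with p107 loss. In the additive fit, where the loss of each protein has a term of its own, 145 genes were called for p107 loss (1.14%), of which 53 were higher (0.417%) and 92 lower. Pdgfrb was the only one of the 10 genes called, higher by 0.67 ± 0.11 (log2, SE) or 1.59-fold, with an adjusted p of 0.000869 by limma. All 18 arrays that lack p107 lay above the mean of the carriers, and 11 lay above every one of the 16 arrays that carry it. The median of the 10 genes was 0.26, against 0.00 over all genes tested.

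The Pdgfrb difference was also seen in parts of the data. Within the first array group it was 0.60 on the log2 scale (5 arrays lacking p107, 10 carrying it), within the third 0.60 (4 and 5 arrays) and within the second 0.29 (9 arrays and 1). With array group as a factor the additive term was 0.56 ± 0.12 (adjusted p = 0.013), and without the p107 KO array and array 9 of the Rb1;p130 DKO it was 0.69 (adjusted p = 0.000132). A second, dimmer Pdgfrb probe set, with signals of 20.5 to 241.8, had a difference of 0.41 ± 0.18 (adjusted p = 0.268 over 23418 probe sets), which did not pass.

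The 3 pairs of genotypes that differ in p107 share no array with each other, and Pdgfrb had a positive difference in each. It was 0.69 ± 0.16 (log2, SE) in livers lacking all 3 proteins against those lacking Rb1 and p130 (adjusted p = 0.218), 0.67 ± 0.22 in the p107;p130 DKO against the p130 KO (adjusted p = 0.971) and 0.53 ± 0.26 in the Rb1;p107 DKO against the Rb1 KO (adjusted p = 0.425). None passed over all genes, and limma called few genes in these pairs: 3 (0.0236%), 3 (0.0236%) and 1 (0.00786%), with 2, 2 and 0 of the 10 mesenchymal genes at an unadjusted p under 0.05. Without array 9 of the Rb1;p130 DKO the first difference was 0.78 and passed (adjusted p = 0.0283). The arrays did not overlap in the Rb1;p107 DKO against the Rb1 KO, which was the case for 7.82% of all genes in that direction.

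Set against each other on a background lacking Rb1, loss of p107 and loss of p130 also differed for Pdgfrb. The Rb1;p107 DKO had 0.87 ± 0.17 (log2, SE) or 1.83-fold more than the Rb1;p130 DKO (adjusted p = 0.0185), with no overlap between the 5 arrays and the 9, which was so for 0.322% of genes in that direction. In this pair 34 genes were called (0.267%), 11 of them higher (0.0865%), and Pdgfrb was the only mesenchymal gene called. The second largest difference was in Rgs5, at -0.84 ± 0.28 (adjusted p = 0.12). The Pdgfrb call ended with array group as a factor (0.60, adjusted p = 0.845), with the mean of its probe sets (0.66, adjusted p = 0.108), and without array 2, 3 or 4 of the Rb1;p107 DKO (adjusted p = 0.0678, 0.0907 and 0.0574).

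Pdgfra, the receptor that binds PDGF-A and marks fibroblasts and mesenchymal progenitors, had differences of the same sign in its brightest probe set that did not pass. Its signal had a lowest value of 414.6, a median of 697.0 and a highest of 856.2 in the triple KO, 261.6, 424.7 and 1276.7 in the Rb1;p130 DKO, and 495.2, 735.4 and 919.4 in the p107;p130 DKO. The Rb1;p107 DKO had 596.4, 808.5, 548.1, 378.4 and 560.0, the Rb1 KO 714.8 and 327.5, the p130 KO 283.7, 494.5 and 276.0, the p107 KO 1457.7 and wild type 458.0 and 464.4. In the 11 pairs of genotypes tested its arrays overlapped, except that all 6 arrays of the p107;p130 DKO lay above the 3 of the p130 KO, by 0.99 ± 0.32 on the log2 scale (adjusted p = 0.971). That was the case for 1.06% of all genes in that direction.

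In the additive fit the p107 term of Pdgfra was 0.53 ± 0.17 (log2, SE; adjusted p = 0.107). Without array 9 of the Rb1;p130 DKO, where Pdgfra stood at 1276.7, it was 0.62 (adjusted p = 0.0194), and without that array and the p107 KO array 0.57 (adjusted p = 0.0258). Within the first array group the 5 arrays lacking p107 had 0.82 more than the 10 that carry it, and within the third the difference was 0.30. A second, dimmer Pdgfra probe set had signals of 24.4 to 200.7. Its p107 term by limma was 0.17 ± 0.15 (adjusted p = 0.604 over 23418 probe sets), which did not pass. The ligands Pdgfa, Pdgfb and Pdgfc had median signals of 133.4, 182.3 and 114.4, and Pdgfd stayed under 100 on all arrays.

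**Figure D4:**
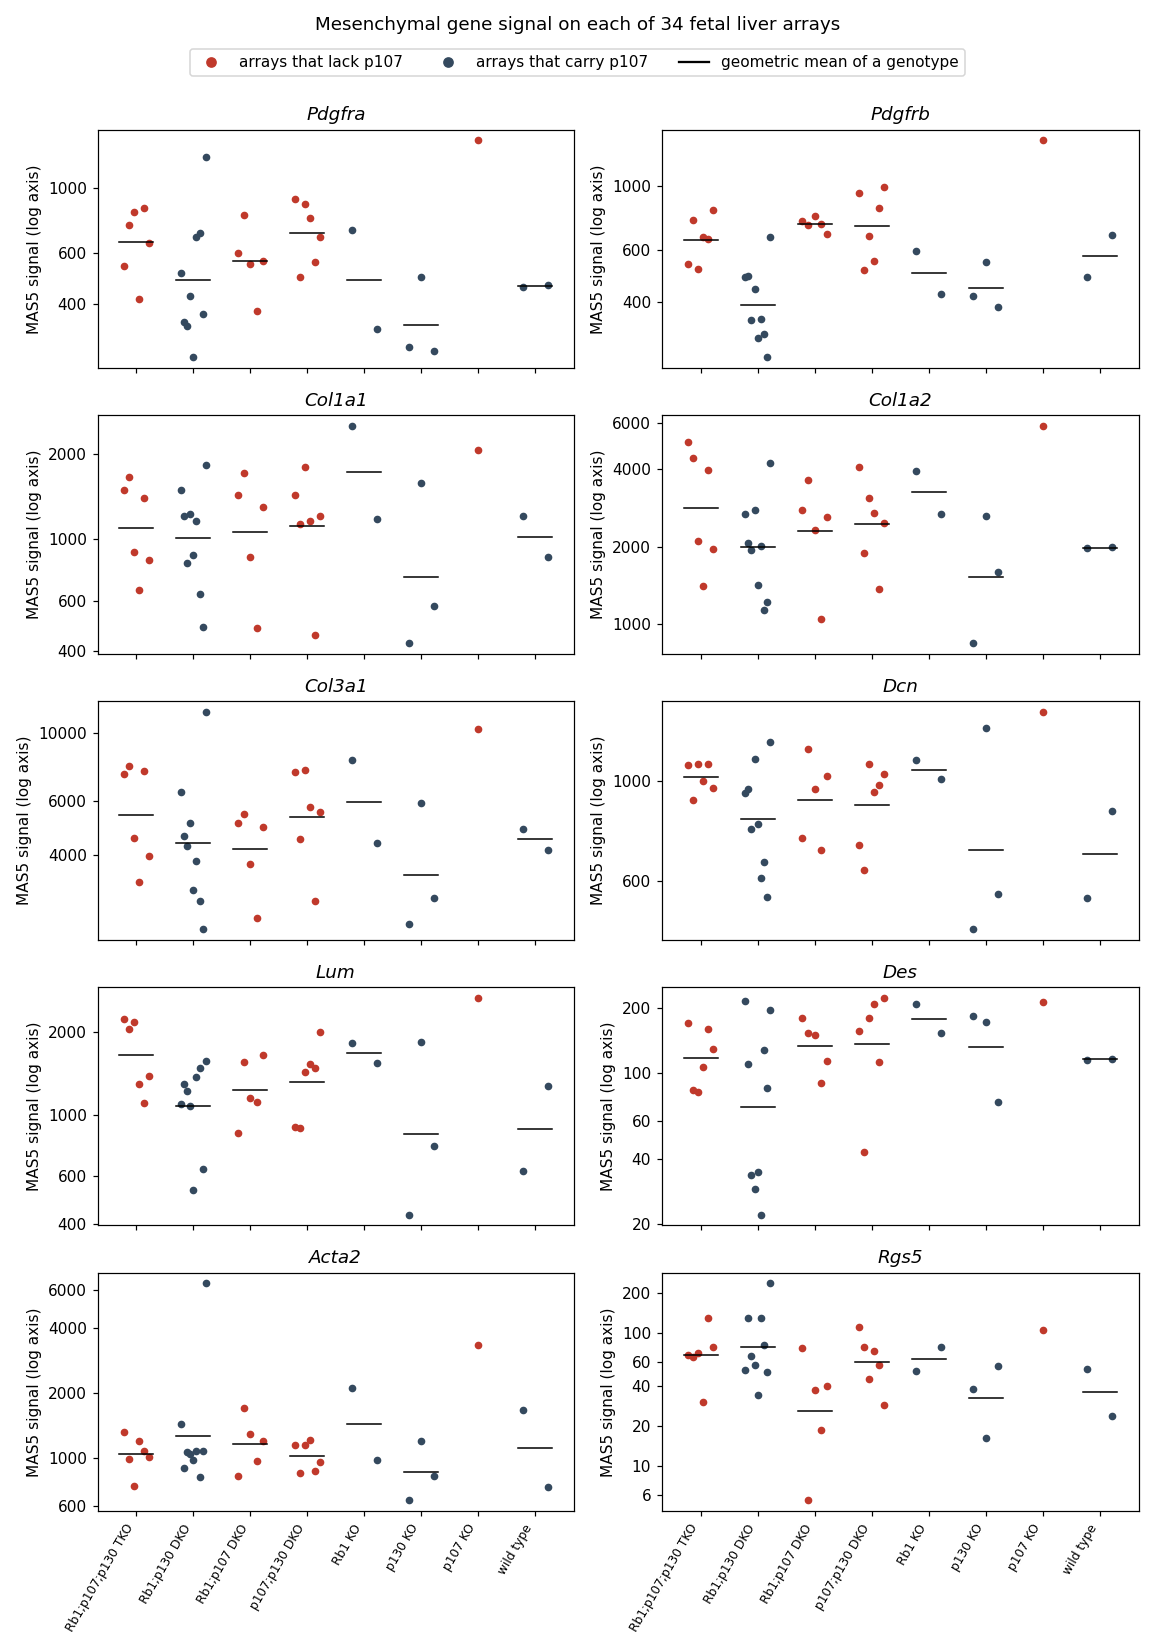
Each panel shows 1 gene, with the MAS5 signal of its brightest probe set on a log axis and the 8 genotypes along the horizontal axis. Points are arrays, red where p107 is lost and dark blue where it is carried, and black lines are geometric means of genotypes with 2 or more arrays. Arrays of a genotype often spread widely, for example from 1405.1 to 5075.2 for Col1a2 in the triple KO, while for Acta2 array 9 of the Rb1;p130 DKO (6446.8) stands alone above its genotype.

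The 3 collagen genes varied strongly between arrays and not detectably between genotypes. Col1a1 and Col1a2 encode the chains of type I collagen and Col3a1 that of type III, the main fibrillar collagens of loose connective tissue. Col3a1 ran from 3258.2 through a median of 5944.6 to 7765.2 in the triple KO, from 2295.4 through 4272.0 to 11690.8 in the Rb1;p130 DKO and from 2817.6 through 5626.9 to 7565.2 in the p107;p130 DKO. It was 5096.5, 5421.4, 3730.8, 2480.3 and 4914.7 in the Rb1;p107 DKO, 8155.5 and 4363.5 in the Rb1 KO, 2378.5, 5912.5 and 2881.4 in the p130 KO, 10284.2 in the p107 KO and 4865.9 and 4162.0 in wild type. All genotypes overlapped with wild type except the p107 KO, whose single array lay above both.

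Col1a2 had 1405.1 to 5075.2 in the triple KO, 1136.4 to 4229.8 in the Rb1;p130 DKO, 1054.0 to 3623.3 in the Rb1;p107 DKO and 1375.2 to 4066.6 in the p107;p130 DKO. The Rb1 KO had 3942.5 and 2687.2, the p130 KO 847.1, 2624.8 and 1597.3, the p107 KO 5853.8 and wild type 1969.3 and 2000.8. Both Rb1 KO arrays were thus above both wild type arrays, while the double and triple KO ranges reached to both sides of wild type. Col1a1 spanned 426.6, on array 1 of the p130 KO, to 2503.9, on array 1 of the Rb1 KO. In the additive fit the p107 terms were 0.38 ± 0.21 for Col1a2, 0.24 ± 0.19 for Col3a1 and 0.13 ± 0.21 for Col1a1 (adjusted p = 0.343 to 0.783), and none of the 3 passed.

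The collagen genes moved together from array to array. The correlation of their deviations from the genotype mean was 0.94 between Col1a2 and Col3a1 (Spearman's rho 0.93), 0.93 between Col1a1 and Col3a1 and 0.91 between Col1a1 and Col1a2, over 34 arrays. For Col1a2 and Col3a1 the permutation p was 1e-05 for both measures, the smallest that 100000 permutations can give, and 0.00015 after adjustment over the 45 pairs of the 10 genes. The correlation was 0.94, 0.96 and 0.93 within the 3 array groups and 0.94 without the 2 arrays farthest from the median of Col1a2. Without the p107 KO array and array 9 of the Rb1;p130 DKO the 3 collagen correlations were 0.94, 0.96 and 0.90. The p107 KO array has a deviation of 0 by construction and adds nothing. The permutations treated the 34 deviations as exchangeable, though 26 residual degrees of freedom remain, so the permutation p-values may be too small.

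The promoters of Col1a2 and Col3a1, on different chromosomes, are shown because the signals of both genes vary together, with the letters of the motifs found in capitals. They are the 250 bases before and 50 after the annotated start, from RefSeq on GRCm38.p6, at chr6:4505368-4505667 (plus strand) for Col1a2 and chr1:45311288-45311587 (plus strand) for Col3a1.
Col1a2: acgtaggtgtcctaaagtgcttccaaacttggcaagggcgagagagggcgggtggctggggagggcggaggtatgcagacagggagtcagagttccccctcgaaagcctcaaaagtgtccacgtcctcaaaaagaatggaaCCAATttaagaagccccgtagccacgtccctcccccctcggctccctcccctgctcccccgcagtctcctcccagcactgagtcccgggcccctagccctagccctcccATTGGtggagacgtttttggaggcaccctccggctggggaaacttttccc
Col3a1: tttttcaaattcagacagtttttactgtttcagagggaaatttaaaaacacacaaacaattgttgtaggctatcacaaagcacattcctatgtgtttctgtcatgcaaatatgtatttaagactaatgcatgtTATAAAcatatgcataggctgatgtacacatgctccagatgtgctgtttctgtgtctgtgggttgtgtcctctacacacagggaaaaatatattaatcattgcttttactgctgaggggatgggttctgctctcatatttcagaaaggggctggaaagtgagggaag
The motifs searched, on both strands, were TATAAA, the CCAAT box, TTTNGCGC (an E2F motif) and the CArG box (CC, then 6 bases that are A or T, then GG), with exact matches only. The Col1a2 window holds CCAAT at bases -109 to -105 from the start and, on the other strand, at 0 to 4, and the Col3a1 window holds TATAAA at -117 to -112. CCAAT is found in 37.4% of 32851 promoter windows, TATAAA in 13.6%, TTTNGCGC in 1.38% and the CArG box in 1.63%. The 6 mesenchymal genes searched held no exact match to TTTNGCGC or to the CArG pattern, and copies with a mismatch were not searched. Pdgfrb, Col1a1, Dcn and Lum were not among the genes searched. Rgs5 had 1 CCAAT on the other strand at -67 to -63.

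The genes outside the 10 with the pattern most like the mean of the 3 collagens were, by the correlation of deviations over 34 arrays, Serpinh1 (0.89), Cpe (0.89), Lrrc17 (0.86), Col6a1 (0.82), Ptn (0.82), Col5a2 (0.82), Sfrp2 (0.81), Cdon (0.81), Rab34 (0.80) and Fxyd6 (0.80). Serpinh1 encodes the collagen chaperone of the endoplasmic reticulum, and Col6a1 and Col5a2 encode chains of other collagens. The median over all genes tested was 0.07. Without the p107 KO array and array 9 of the Rb1;p130 DKO the correlations of these 10 genes were 0.77 to 0.88, and 8 of them were still among the 10 highest. Among the other mesenchymal genes, Pdgfra had 0.64, Acta2 0.60, Dcn 0.57, Pdgfrb 0.45, Lum 0.41, Des 0.36 and Rgs5 0.28 over all 34 arrays. Many of the 12723 genes tested had higher values than these: 225 for Pdgfra, 1283 for Pdgfrb and 3036 for Rgs5, the most. Without those 2 arrays the correlations of the other mesenchymal genes ran from 0.12 for Rgs5 to 0.56 for Pdgfra.

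Dcn and Lum encode decorin and lumican, small leucine-rich proteoglycans that bind collagen fibrils. Dcn was 906.4 to 1089.4 in the triple KO with a median of 1044.1, 550.9 to 1224.0 with a median of 801.8 in the Rb1;p130 DKO, and 635.3 to 1089.8 with a median of 962.2 in the p107;p130 DKO. The Rb1;p107 DKO had 745.2, 1176.4, 962.4, 700.8 and 1027.3, the Rb1 KO 1116.1 and 1008.1, the p130 KO 469.1, 1314.4 and 560.3, the p107 KO 1424.8 and wild type 548.6 and 859.5. The 6 triple KO arrays were close together and all lay above both wild type arrays, by 0.55 ± 0.28 on the log2 scale (limma, adjusted p = 1). All arrays were higher without overlap in that comparison for 3.7% of genes tested.

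Lum ran from 1100.9 through a median of 1710.0 to 2226.1 in the triple KO, from 530.4 through 1218.8 to 1560.3 in the Rb1;p130 DKO and from 892.3 through 1454.0 to 1997.4 in the p107;p130 DKO. The Rb1;p107 DKO had 856.5, 1549.6, 1151.2, 1109.6 and 1648.8, the Rb1 KO 1815.5 and 1544.0, the p130 KO 433.9, 1833.7 and 768.5, the p107 KO 2655.5 and wild type 622.1 and 1269.3. The 3 arrays of the p130 KO alone spread from the lowest value of all 34 arrays to 1833.7, across both wild type arrays. The p107 term was 0.44 ± 0.18 for Lum (adjusted p = 0.208) and 0.25 ± 0.12 for Dcn (adjusted p = 0.296). Within the third array group the p107 difference of Lum was 0.83 (4 arrays and 5), and within the first it was -0.02 (5 and 10). The deviations of Dcn and Lum correlated at 0.66 (rho 0.60, adjusted permutation p = 0.00027 for r).

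Acta2 encodes smooth muscle actin, which arterial muscle and myofibroblasts make. It was 742.0 to 1314.3 in the triple KO, 813.0 to 6446.8 with a median of 1062.0 in the Rb1;p130 DKO, 819.3 to 1699.7 in the Rb1;p107 DKO and 847.6 to 1209.0 in the p107;p130 DKO. The Rb1 KO had 2113.1 and 981.2, the p130 KO 635.2, 1196.6 and 825.7, the p107 KO 3349.5 and wild type 1673.1 and 735.3. The highest values were on the 2 arrays that also carried pancreas, gut and muscle signal, and on the signal + 32 scale its range of 9.71-fold was the widest of the 10 genes, ahead of 7.15-fold for Rgs5. That range rests on the same 2 arrays: without them it was 3.21-fold, and Col1a2 had the widest, at 5.81-fold. Genotype held 11.0% of its variance, under the 18.8% from noise alone, and the p107 term was -0.07 ± 0.20 (adjusted p = 0.886). Without the 2 arrays genotype held 18.9% and the term was 0.01 ± 0.12 (adjusted p = 0.966).

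Des encodes desmin, the intermediate filament used as a stellate cell marker in rodents, and its signal was low. It reached 100 on 24 of the 34 arrays, with 81.9 to 169.7 in the triple KO, 22.1 to 216.2 in the Rb1;p130 DKO, 90.1 to 180.3 in the Rb1;p107 DKO and 43.0 to 222.9 in the p107;p130 DKO. The Rb1 KO had 207.5 and 152.6, the p130 KO 182.9, 172.6 and 73.5, the p107 KO 212.6 and wild type 115.3 and 116.4. Within the Rb1;p130 DKO the 9 arrays split widely, with 4 of them reaching 100. No detection calls were used here, so low values have no order that can be trusted.

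Rgs5, a regulator of G protein signalling that marks pericytes, reached 100 on 6 arrays. It was 30.3 to 129.3 in the triple KO, 34.4 to 236.6 in the Rb1;p130 DKO, 5.5 to 77.3 in the Rb1;p107 DKO and 28.5 to 111.4 in the p107;p130 DKO. The Rb1 KO had 51.8 and 79.1, the p130 KO 37.7, 16.3 and 56.1, the p107 KO 106.0 and wild type 53.6 and 23.8. Its p130 term was 0.39 ± 0.21 (log2, SE; adjusted p = 0.521), at a signal under 100 on most arrays.

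Over all 45 pairs of the 10 genes, deviations from the genotype mean were mostly positively correlated. The median r was 0.43, and 43 pairs were above 0. Pairs of other genes were not counted, so whether this is particular to the 10 genes was not tested. By permutation, 31 pairs had an adjusted p under 0.05 for r, all positive, and 19 for Spearman's rho. These counts may be too high, since deviations from genotype means are not freely exchangeable between arrays. The lowest correlation was -0.18, between Dcn and Rgs5. The counts rest in part on array 9 of the Rb1;p130 DKO. Without it and the p107 KO array the median r was 0.32, 40 pairs were above 0, 15 pairs had an adjusted p under 0.05 for r, all positive, and 13 for rho, and Dcn and Rgs5 were at -0.41. Within the 3 array groups the median was 0.55, 0.41 and 0.64.

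**Figure D5:**
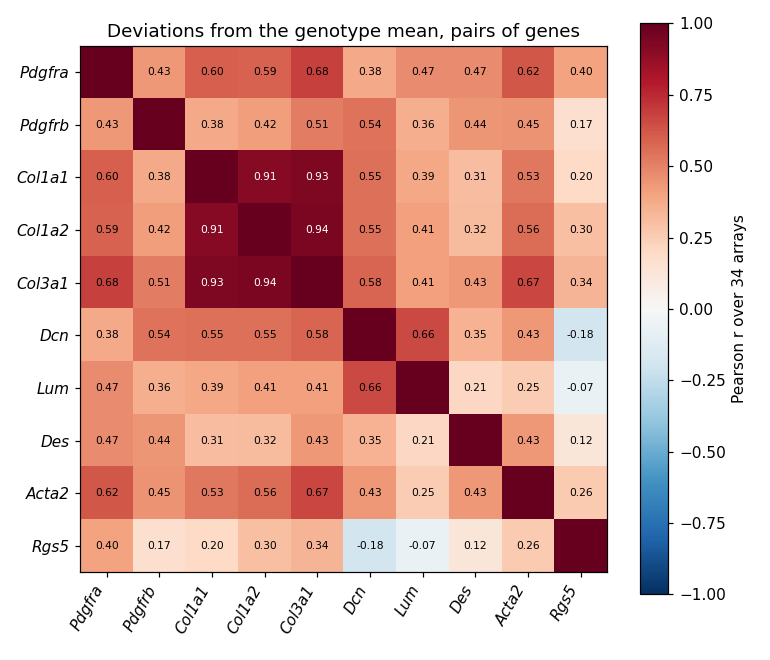
Each cell gives Pearson's r between 2 mesenchymal genes over 34 arrays, after subtracting the genotype mean from each log2 value, on a colour scale from -1 (blue) to 1 (red). The 3 collagen genes form the darkest block (0.91 to 0.94), and the pale row and column are those of Rgs5, with -0.18 against Dcn.

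None of the 10 genes was called for Rb1 loss. In the additive fit 288 genes were called for Rb1 loss (2.26%) and none was mesenchymal, with 1 of the 10, Pdgfrb, at an unadjusted p under 0.05 (-0.25 ± 0.11, adjusted p = 0.362). The other terms ran from -0.31 ± 0.20 for Des to 0.19 ± 0.20 for Rgs5, and the median was 0.07, against -0.02 over all genes.

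Single pairs of genotypes gave no call for Rb1 loss either. In the triple KO against the p107;p130 DKO 48 genes were called (0.377%), in the Rb1;p130 DKO against the p130 KO 15 (0.118%) and in the Rb1 KO against wild type 1 (0.00786%), with 0 mesenchymal genes in each and 0, 1 and 0 at an unadjusted p under 0.05. The median differences of the 10 genes were 0.03, 0.36 and 0.49 on the log2 scale, against -0.01, -0.01 and 0.02 over all genes. In the Rb1 KO against wild type Col1a2, Dcn, Lum and Des did not overlap, all 4 higher, where 15.6% of all genes did so with 2 arrays on either side.

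The effect of Rb1 loss did not detectably depend on p107. The interaction on a background lacking p130 had 0 called genes (0%), with 209 genes but none of the 10 at an unadjusted p under 0.05. The estimates ran from -0.66 ± 0.45 for Rgs5 to 0.41 ± 0.50 for Des, with a median of -0.25 against -0.01 over all genes. The SEs of these terms were 0.27 to 0.51.

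For p130 loss, the additive fit called 2 genes (0.0157%) and none of the 10 by limma, with Pdgfrb at an unadjusted p of 0.00808 (-0.33 ± 0.12, adjusted p = 0.396). In single backgrounds 1 gene was called in the triple KO against the Rb1;p107 DKO (0.00786%), 0 in the Rb1;p130 DKO against the Rb1 KO (0%) and 0 in the p130 KO against wild type (0%), with 1, 1 and 0 mesenchymal genes at an unadjusted p under 0.05. The median differences of the 10 genes were 0.18, -0.40 and -0.35 (log2), against 0.03, 0.01 and 0.03 over all genes.

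Loss of all 3 proteins gave no call among the 10 genes. In the triple KO against wild type 10 genes were called by limma (0.0786%), 0 of them mesenchymal, with 1 of the 10 at an unadjusted p under 0.05. The largest differences were 0.86 ± 0.39 for Lum, 0.56 ± 0.42 for Rgs5 and 0.55 ± 0.28 for Dcn, and the smallest 0.02 ± 0.46 for Des. With 2 wild type arrays these SEs are wide.

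Few other genes of the same cells and pathways were called for p107 loss. None of 17 tested stellate cell genes, 15 smooth muscle and pericyte genes or 10 mesothelial genes was called in the additive fit by limma, with 6, 0 and 1 of them at an unadjusted p under 0.05. Over all 12723 genes 1.14% were called, 0.417% higher, and 2168 had an unadjusted p under 0.05. Of 37 matrix and collagen processing genes, 2 rose: Tnc, an extracellular matrix glycoprotein (0.37 ± 0.09, adjusted p = 0.0364), and Fbln1, a protein of elastic fibres and basement membranes (0.47 ± 0.12, adjusted p = 0.05). Of 19 genes of PDGF and TGF-beta signalling 1 rose, the TGF-beta receptor Tgfbr1 (0.32 ± 0.08, adjusted p = 0.0449). These 3 were named after their values were seen. Each lost its call with array group as a factor (adjusted p = 0.141, 0.0516 and 0.248) and in 11, 28 and 22 of the 34 fits that left out a single array. The median p107 term was 0.04 for the stellate, 0.03 for the matrix and 0.10 for the signalling genes.

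Among the lists of other cell types, 0 of 15 skeletal muscle, 15 endothelial, 13 hepatocyte, 10 macrophage and 5 pancreas and gut genes were called in the genotype F test by limma, with 1, 1, 0, 1 and 0 at an unadjusted p under 0.05. Over all genes 0.778% were called, and 1245 of 12723 had an unadjusted p under 0.05. Of 10 erythroid genes 1 was called, Epor, the erythropoietin receptor (F = 15.91, adjusted p = 1.59e-05). It was lower with Rb1 loss (-0.83 ± 0.10) and with p107 loss (-0.43 ± 0.09, adjusted p = 0.0119).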

How the data were processed

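Biotin-labelled total RNA of mouse fetal liver was measured on 34 1-colour Affymetrix arrays. The deposited unit is intensity, the linear signal of each of 45037 probe sets, made by the authors with MAS5 in GCOS 1.4, per the submitters' processing notes. No detection calls, counts or scan dates were used here, so the number of arrays limits the precision. GEO's platform annotation, updated through the RefSeq gene table (GRCm38.p6), gave 34945 probe sets 1 gene symbol, 932 several (left out) and 9160 none. The 10 genes have 24 probe sets.

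The signals of each array were multiplied to give a 2% trimmed mean of 500 and then taken as log2(signal + 32). The brightest probe set, by its mean over the 34 arrays, stood for a gene, and genes that reached 100 on 2 or more arrays were tested. Of the 10 genes, 8 had a signal of 100 or more on all 34 arrays, Des on 24 and Rgs5 on 6. limma 3.58.1 (R 4.3.3, eBayes with trend=TRUE, two-sided) fitted 1 mean per genotype for an F test, 11 pairs and 1 interaction, and a second fit had additive terms for loss of Rb1, p107 and p130. Fold changes are on the log2(signal + 32) scale and understate changes of dim genes. Calls are at a Benjamini-Hochberg adjusted p under 0.05 over all genes tested within a comparison. Correlations used 100000 permutations across all 34 arrays of deviations that hold 26 residual degrees of freedom, so their p-values may be too small.

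Array groups came from log2 differences between the 2 brightest probe sets of 2994 genes, without the 10 genes, with the number of groups set to 3. Of the steps, only the additive fit for p107 loss was run on simulated data, with genes drawn independently and no array groups. Named besides the 10 genes are Rb1, Rbl1 and Rbl2, up to 4 called genes of each list, and the 10 genes most like the collagen mean, by rule. Genes of the stellate, pancreas and gut and signalling lists given as levels only, and Tnc, Fbln1 and Tgfbr1, were named after their values were seen. The members, lists, tests and alternatives were chosen with earlier results of these data known. Alternatives were other pseudocounts, filters, normalization and priors, the mean of probe sets, replicate number, array group or Xist class (arrays with or without Xist signal) as factors, only the compared arrays, and left-out arrays. The labels do not say whether replicate numbers pair arrays. Deviations from genotype means correlated at a median of 0.07 between arrays of the same number (67 pairs, -0.38 to 0.50) and -0.01 between others. These medians cannot exclude a pairing. Array group follows replicate number in the Rb1;p130 DKO, the p107;p130 DKO, the Rb1;p107 DKO and the p130 KO, and in part in the triple KO.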

Additional observations from a re-analysis of the deposited data

Results flagged for a closer look

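In groups of 4 to 10 arrays, 40 combinations of gene and genotype were checked for an array far from its nearest neighbour relative to the range of the group. Such a gap was found in 2, and chance alone gives about 1 in 20, or 2. Acta2 stood at 6446.8 on array 9 of the Rb1;p130 DKO, the highest of 9 arrays, whose gap took 0.731 of the range of the genotype. Col1a1 stood at 455.0 on array 5 of the p107;p130 DKO, the lowest of 6 arrays, with a gap of 0.652 of the range.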

How the results depend on the processing

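The counts of mesenchymal genes called, and the spread and correlation summaries, took 806 values under alternatives. Of these, 790 stayed equal or near to the value reported and 16 moved. In most comparisons the count was 0 in the fit reported, so many of the 790 are counts that stayed at 0. No gene called in the fit reported or in an alternative changed sign between them. Signs of genes called in neither were not compared, and that of the Acta2 p107 term did change. The 1 gene called in the F test became 0 with the mean of all probe sets, with array group as a factor, and with array group and Xist class together (the last chosen after seeing the data). For p107 loss in the additive fit the 1 gene called became 2, with Pdgfra added, with the replicate block (0.72, adjusted p = 0.0141), without arrays 8 and 9 of the Rb1;p130 DKO, and without the p107 KO array and array 9 of the Rb1;p130 DKO (the last chosen after seeing the data), and it was 1 to 2 when single arrays were left out. In the triple KO against the Rb1;p130 DKO the 0 genes called became 1, Pdgfrb, without that last pair of arrays, and were 0 to 1 without single arrays. In the Rb1;p107 DKO against the Rb1;p130 DKO the 1 gene became 0 with the mean of all probe sets, with array group and with array group and Xist class, and was 0 to 2 without single arrays. It was 2 without array 1 of the Rb1;p107 DKO, where Rgs5 also passed (-1.04, adjusted p = 0.0338). The replicate block changed no other call among the 10 genes. Counts over all genes moved more. For p107 loss they were 145 in the fit reported, 302 with the replicate block, 84 with array group, 67 with array group and Xist class, 479 without arrays 8 and 9 of the Rb1;p130 DKO, 229 without the p107 KO array and array 9 of the Rb1;p130 DKO, and 69 to 335 without single arrays. For the Rb1;p107 DKO against the Rb1;p130 DKO they were 34, 778 with the replicate block, 4 with array group, 261 without arrays 8 and 9 of the Rb1;p130 DKO, 224 with only the compared arrays, 123 with a higher signal filter, and 6 to 813 without single arrays. For Rb1 loss in the additive fit they were 288, 560 with array group and 442 with each probe set as a feature, and for the F test 99, 169 with array group and 158 without arrays 8 and 9 of the Rb1;p130 DKO. In the triple KO against the p107;p130 DKO 48 genes became 80 with the replicate block, 110 with array group and 31 with Xist class. In the Rb1;p130 DKO against the p130 KO 15 became 26 with quantile normalization, 50 with array group and 5 with only the compared arrays, and in the triple KO against wild type 10 became 29 with array group and 2 with only the compared arrays. Except where a setting tests other genes or arrays, the cause was not tested. Signal near background limits Des, Rgs5 and the dimmer Pdgfra and Pdgfrb probe sets.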
